A study of Mus musculus with 2 samples.

Results

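This is a description of 34 stress-response genes, 20 immediate-early genes and 14 heat-shock genes, in immune cells from B16-F10 mouse melanomas. They were taken by symbol from the 32432 genes of the count matrices, and all 34 were present once. The immediate-early genes were Fos, Fosb, Fosl2, Jun, Junb, Jund, Egr1, Egr2, Egr3, Atf3, Ier2, Ier3, Ier5, Zfp36, Zfp36l1, Dusp1, Dusp2, Btg2, Klf6 and Nr4a1. The heat-shock genes were Hspa1a, Hspa1b, Hspa8, Hspa5, Hsph1, Hsp90aa1, Hsp90ab1, Hspd1, Hspe1, Dnaja1, Dnajb1, Dnajb4, Bag3 and Hspb1.

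Immediate-early genes are transcribed within minutes of a signal, without new protein synthesis, when kinases switch on factors already bound at their promoters, such as serum response factor and CREB. Many encode transcription factors (AP-1, EGR, NR4A), and others encode proteins that end the signal, such as the phosphatases Dusp1 and Dusp2 or the mRNA-decay proteins Zfp36 and Zfp36l1. Heat-shock genes encode chaperones that fold and protect proteins. HSF1 drives the strongly inducible members, among them Hspa1a, Hspa1b, Dnajb1 and Hspb1, while Hspa8 and Hsp90ab1 are made constantly in most cells. Both programmes are also known to be switched on when solid tissue is dissociated to single cells, and how much of the levels below came from that step was not tested.

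The study compared tamoxifen-treated male mice of 2 genotypes, aged 8 to 12 weeks. The iKO mice were Trex1 fl/fl-R26CreERT2-ki/wt, in which both copies of Trex1, a DNA exonuclease, can be deleted, and the control mice were Trex1 wt/fl-R26CreERT2-ki/wt, in which 1 copy can be. Both carried the tamoxifen-activated Cre at the R26 locus, which is expressed widely, so the control is a conditional heterozygote with active Cre and not a wild type. All received 1000 B16-F10 melanoma cells in Matrigel in both legs, 1 mg tamoxifen daily for 3 days from day 5, and tumour harvest on day 14. Tumours were digested with enzymes for 30 min at 37 °C with shaking before CD45+ cells were bead-enriched and sorted, and this step was shared by both genotypes. Cells of 4 hashtagged samples were pooled per genotype, which gave 4 matrices named iKO1 to iKO4 here and 4 named control1 to control4. Since each genotype was its own pool, an effect of the pool cannot be told apart from one of the genotype. The labels do not say that a hashtagged sample is 1 mouse, so p-values measure the spread between these 8 samples.

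Depth and sample quality set some limits. The matrices held 1362 to 6117 barcodes and 17111065 to 96457227 unique molecular identifiers (UMIs, counted RNA molecules), and 22052 of 23731 cells were kept. No cell barcode was shared within a pool, and 45 were shared between the pools. Trex1 itself could not check the labels: it had 0 UMIs in the kept cells of 7 matrices and 2 in control2. The makeup of the samples differed: CD8 T cells were 32.1% and 42.0% of kept cells in iKO1 and iKO2 and 5.70 to 22.1% in the other 6. iKO1 and iKO2 also stood apart from iKO3 and iKO4 within gates, with a median of 18059 and 14978 UMIs per CD8 T cell against 7644 and 8059. The results are therefore given with and without these pairs where it matters.

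Cells were assigned to types by counting detected marker genes, none of them a member of the set. The gates held 8585 monocytes and macrophages, 5076 CD8 T cells, 1325 neutrophils, 1251 other T cells, 867 B cells, 622 CD4 T cells, 503 regulatory T cells (Treg) and 486 mature dendritic cells (DC). The cDC2, cDC1, pDC and NK gates were small (226, 188, 131 and 128 cells), and 2664 cells stayed ungated. The other T gate is what remained of the T cells: Cd4 was detected in 32.2%, Cd8a in 25.1% and Foxp3 in 27.2% of its cells, so it is a mixture. UMIs were summed per gate and matrix, and levels across gates are the UMIs of a gene relative to that sum on the CPM scale, as mean ± SD over the matrices with at least 20 cells.

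As a share of a gate's UMIs, neutrophils carried the most immediate-early RNA. Their cells held fewer UMIs, with medians of 3673 to 8716 over the 8 matrices against 13110 to 16528 in monocytes and macrophages. The ranking is therefore not one of RNA per cell. The 20 genes together made up a median of 22745 CPM in neutrophils, 12469 in monocytes and macrophages, 5979.8 in mature DC and 3382 in CD8 T cells. Of the 20, 11 had their highest mean in neutrophils and 3 in monocytes and macrophages. The heat-shock genes ran the other way: their sum was 1823 CPM in neutrophils, against 6075 in monocytes and macrophages and 5539 in CD8 T cells. The lowest neutrophil sum of immediate-early genes over the 8 matrices (19550.2 CPM) was above the highest monocyte and macrophage sum (14511 CPM).

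**Figure D1:**
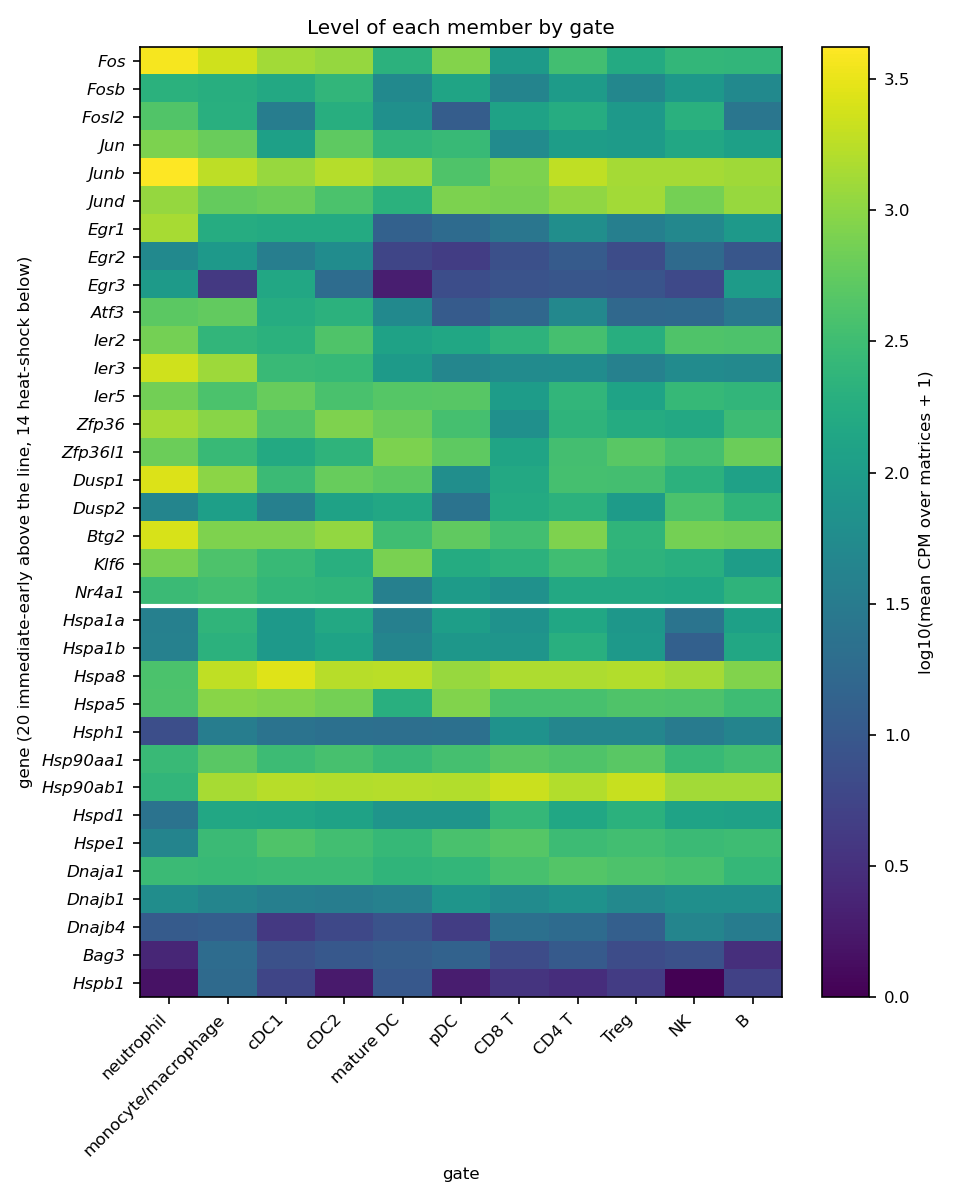
Heat map of the mean level of each of the 34 genes (rows) in 11 gates (columns), as log10 of mean CPM + 1 over the matrices with at least 20 cells. The neutrophil column is the brightest for most immediate-early genes and the darkest for Hspa8, Hsp90ab1, Hspd1 and Hspe1.

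Among the AP-1 genes, Fos, the partner that pairs with Jun proteins, ran at 2653 to 5700.1 CPM (median 3675) over 8 matrices in neutrophils. It ran at 1625 to 2807 CPM (median 2356) over 8 matrices in monocytes and macrophages and at 56.6 to 128 CPM (median 96.2) over 8 matrices in CD8 T cells. The neutrophil and the monocyte and macrophage ranges overlapped when not paired by matrix, while every CD8 T value lay below all of them. In the fit with the matrix as a block, given below, Fos was higher in neutrophils. Junb, an AP-1 subunit, was high in every gate, from 423 ± 61.3 CPM in pDC to 4197 ± 918 CPM in neutrophils. Jund went its own way, highest in Treg (1305 ± 235 CPM, 7 matrices) and B cells (1139 ± 166 CPM), which do not differ beyond their spread.

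The EGR factors, zinc-finger proteins induced through serum response factor, split by gate. Egr1 was 1412 ± 626 CPM in neutrophils and 177 ± 35.0 CPM in monocytes and macrophages. Egr3, which lymphocytes use downstream of their antigen receptors, was highest in cDC1 (147 ± 53.2 CPM, 5 matrices), B cells (97.1 ± 46.3 CPM) and neutrophils (93.7 ± 62.6 CPM), whose spreads overlap, and stood at 3.06 ± 1.59 CPM in monocytes and macrophages. Egr2 instead had its highest mean in monocytes and macrophages (89.7 ± 22.7 CPM).

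Of the genes that damp signalling, Dusp1, a phosphatase of p38 and JNK, was 2700.1 ± 648 CPM in neutrophils and 154 ± 36.3 CPM in CD8 T cells. Ier3, a survival and stress gene, was 2332 ± 904 CPM in neutrophils and 1248 ± 353 CPM in monocytes and macrophages, and no lymphoid gate had a mean above 56.0 CPM. Zfp36l1 was the exception in this group, highest in mature DC (802 ± 201 CPM) and B cells (648 ± 118 CPM), and Dusp2, a nuclear phosphatase of lymphoid and myeloid cells, was highest in the 2 usable NK profiles (389.9 CPM).

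The chaperones divided by kind. The inducible HSP70 genes Hspa1a and Hspa1b had their highest means in monocytes and macrophages (233 ± 109 CPM and 215 ± 120.2 CPM), and the matrices were far apart there, for Hspa1a (81.8 to 370.1 CPM) and for Hspa1b (76.4 to 385 CPM). The constitutive Hspa8 was highest in cDC1 (2749 ± 788 CPM) and lowest in neutrophils (394 ± 80.5 CPM). Hspa5, the HSP70 of the endoplasmic reticulum, was highest in monocytes and macrophages (962 ± 134 CPM). Hsp90ab1, the constitutive cytosolic HSP90, and the mitochondrial chaperonin pair Hspd1 and Hspe1 were highest in CD8 T cells, at 2149 ± 240.3 CPM, 261 ± 53.6 CPM and 458 ± 62.7 CPM. Of the last 500 bases of each member's longest coding transcript, only Hspe1 shared 50-base words with another gene of the files (51.7% of them, with AC117239.2). Its counts could have lost reads to that copy. Sequence further from the members' ends and copies outside the files were not searched, so such a loss was not tested for the other members.

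These gate differences were tested in all 8 matrices with the matrix as a block (edgeR quasi-likelihood, Benjamini-Hochberg over all genes tested). Monocytes and macrophages differed from CD8 T cells in 19 of 20 immediate-early genes (17 higher, 2 lower) and in 12 of 14 heat-shock genes (7 higher, 5 lower). Of all genes 78% were called (39.4% higher, 38.5% lower). The counts over both directions are therefore near the background, while by direction the immediate-early calls were mostly higher. The sizes were large for Atf3 (log2 difference 5.57 ± 0.16 SE), Fos (4.88 ± 0.11), Ier3 (4.78 ± 0.10) and Zfp36 (4.19 ± 0.15). The chaperones moved less, from -0.78 ± 0.19 for Hsph1 to 2.18 ± 0.36 for Hspa1a.

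Neutrophils against monocytes and macrophages gave 16 immediate-early genes higher and 2 lower of 20, and 2 heat-shock genes higher and 11 lower of 14. Of all genes 73.3% were called (32.9% higher, 40.4% lower). Egr3 (5.34 ± 0.23), Egr1 (3.44 ± 0.16), Ier2 (2.10 ± 0.13) and Fos (1.23 ± 0.13) were among the higher. Hspb1 (-4.44 ± 0.48), Bag3 (-3.08 ± 0.32) and Hspe1 (-2.29 ± 0.18) were among the lower, and the J-proteins Dnaja1 (0.56 ± 0.13) and Dnajb1 (0.90 ± 0.14), which feed clients to HSP70, were the 2 chaperone genes called higher.

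The members' promoters were searched for motifs of the factors known to drive these programmes. RefSeq's GRCm38.p6 table of promoters held 17 of the 20 immediate-early and 11 of the 14 heat-shock genes, and the 250 bases before the start were searched on both strands. Egr1, Egr3, Ier2, Hspa8, Hsp90aa1 and Hsp90ab1 had no entry. The paired heat-shock element unit GAANNTTC was present for 6 of the 11 (Hspa1a, Hspa1b, Hspd1, Hspe1, Dnaja1 and Hspb1, but not Hspa5, Hsph1, Dnajb1, Dnajb4 or Bag3) and for 2 of the 17 (Fosl2 and Jun), and for 7.73% of all 27025 genes. The same unit followed, after any 2 bases, by another GAA was present for Hspd1 and Hspe1 and for 0.514% of all genes.

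The stretches below end at the base before the start site, run 5′ to 3′ on the gene's strand, and have motif matches in capitals. Hspa1a and Hspa1b are shown because these twin genes were lower in iKO monocytes and macrophages, Hspa1b past the threshold. They are identical at 149 of these 150 bases, and each carries 1 GAANNTTC match, starting 104 bases before the start. Hspb1 is shown because it had the largest difference of any called member, and it has 2 matches. Hspe1 is shown with its matches to that longer motif, which overlap, as a contrast, because it was called in no gate.
Hspa1a (chr17:34972157-34972306, minus strand): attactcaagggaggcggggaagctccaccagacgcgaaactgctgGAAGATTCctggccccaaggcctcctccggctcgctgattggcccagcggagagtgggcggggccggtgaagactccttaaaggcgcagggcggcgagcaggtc
Hspa1b (chr17:34959239-34959388, minus strand): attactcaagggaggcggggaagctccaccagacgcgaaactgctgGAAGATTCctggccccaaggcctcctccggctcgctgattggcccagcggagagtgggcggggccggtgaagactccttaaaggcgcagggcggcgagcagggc
Hspb1 (chr5:135887769-135887918, plus strand): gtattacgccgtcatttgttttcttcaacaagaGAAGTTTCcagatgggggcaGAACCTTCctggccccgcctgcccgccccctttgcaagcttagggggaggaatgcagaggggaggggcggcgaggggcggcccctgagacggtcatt
Hspe1 (chr1:55087998-55088147, plus strand): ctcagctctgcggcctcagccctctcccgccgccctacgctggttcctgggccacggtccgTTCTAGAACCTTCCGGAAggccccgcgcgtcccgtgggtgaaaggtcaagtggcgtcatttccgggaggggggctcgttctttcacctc

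Among the immediate-early genes, the serum response factor site called the CArG box was found for Egr2 and Zfp36 (1.62% of all genes), and the full CREB site TGACGTCA for Dusp1 and Btg2 (1.77% of all genes). No motif searched was found for more than 2 of the 17. Zfp36 and Dusp1 are printed as 1 example of each, and neither was called between the genotypes.
Zfp36 (chr7:28379229-28379328, minus strand): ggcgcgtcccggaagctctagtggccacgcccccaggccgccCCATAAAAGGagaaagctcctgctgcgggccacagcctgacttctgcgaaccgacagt
Dusp1 (chr17:26508473-26508632, minus strand): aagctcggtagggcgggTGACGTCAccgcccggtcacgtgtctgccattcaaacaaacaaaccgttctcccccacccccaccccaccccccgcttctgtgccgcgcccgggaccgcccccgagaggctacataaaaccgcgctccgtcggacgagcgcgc

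The genotypes were then compared in 9 sets of profiles, the whole samples and 8 gates, each fitted over all genes with genotype alone. From here on, values of single genes by matrix are CPM after TMM scaling within the fit. Sums over genes or markers, and levels set against a marker ratio, stay relative to the profile's UMI total. Across the 9, 8 of 20 immediate-early genes and 8 of 14 heat-shock genes were called at least once at an adjusted p under 0.05, beside 20.7% of all genes. Of the genes tested in every fit 38.1% were, beside 6 of 15 immediate-early and 5 of 10 heat-shock genes, so the counts alone are near the background. Immediate-early calls were mostly lower in iKO (9 of 11), and heat-shock calls mostly higher (9 of 13), of which 5 were Hspa8, while 44.5% of the calls of all genes were lower. Of the 9 lower immediate-early calls, 5 were Atf3 and Ier3 in T and B cells, at levels close to what myeloid RNA would leave there, as given below. The gates are part of the whole samples, so these counts are not independent. Never called in these 9 were Fosb, Junb, Egr1, Egr2, Egr3, Ier2, Ier5, Zfp36, Dusp1, Btg2, Klf6 and Nr4a1, and Hsp90ab1, Hspd1, Hspe1, Dnaja1, Dnajb1 and Bag3.

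**Figure D2:**
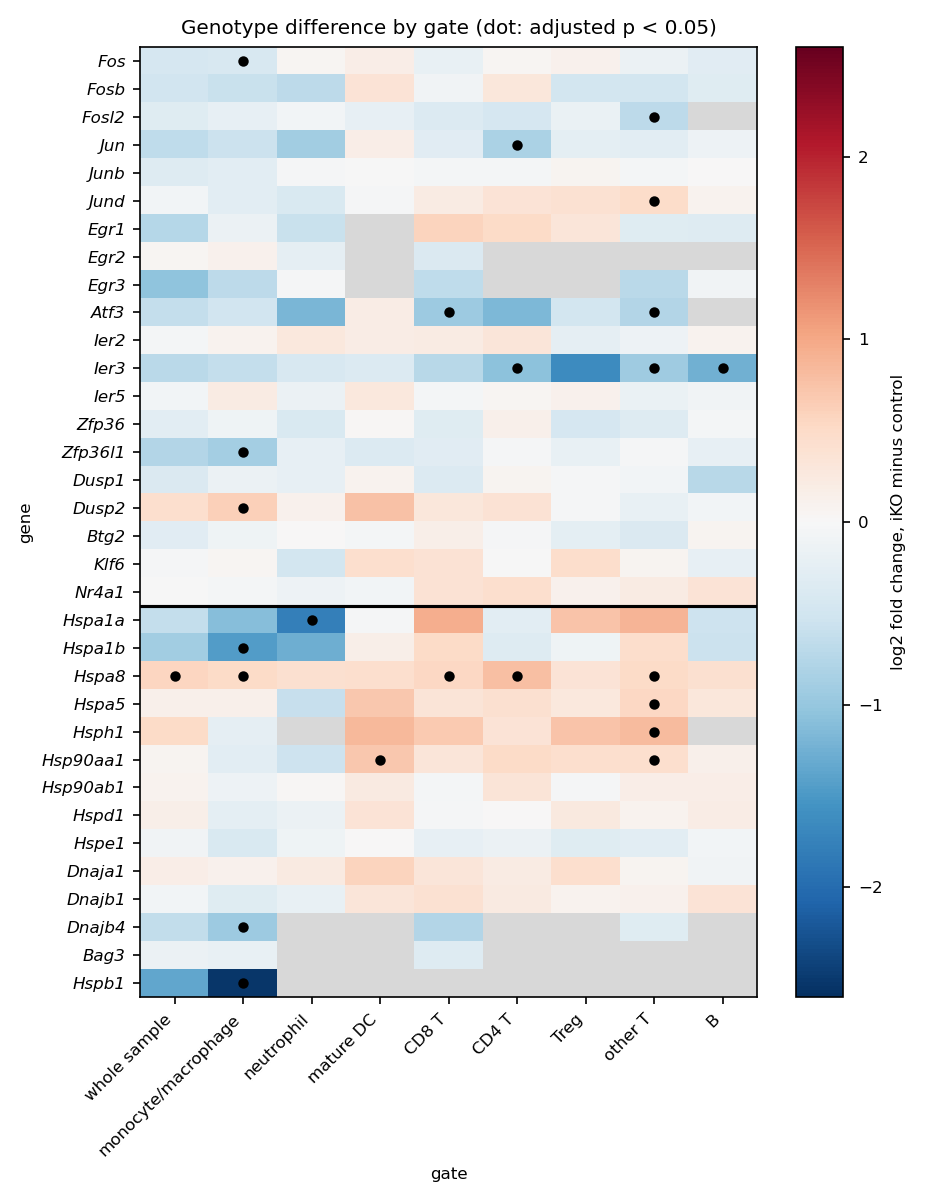
Log2 fold change (iKO minus control) of the 34 genes (rows) in the whole samples and 8 gates (columns), with dots where the adjusted p was under 0.05 and grey where the low-count filter removed the gene. Hspa8 is above 0 in all 9 columns and Ier3 and Zfp36l1 are below 0 in all 9.

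In the whole samples, 18 of 20 immediate-early genes had log2 fold changes below 0 (median -0.33), beside 50.8% of all genes (median -0.01). Without iKO1 and iKO2 it was 12 of 20 (median -0.05), beside 53.3% of all genes. Without iKO3 and iKO4 it was 18 of 20 (median -0.65), beside 52.2% of all genes. None of the 20 was called by edgeR with all 8 matrices or without iKO1 and iKO2. Without iKO3 and iKO4, 5 were called lower, beside 5.61% of all genes. An unadjusted p under 0.05 was found for 6 of the 20 and for 21.5% of all genes, and DESeq2 called 2 lower and 1 higher, beside 10.3% of all genes. With the replicate number as a block edgeR called 4 lower, Jun, Junb, Egr1 and Egr3, beside 5.26% of all genes, and 13 of the 20 had an unadjusted p under 0.05, beside 27.4% of all genes. The 20 summed to 7052, 6324, 9732 and 10754 CPM in iKO1 to iKO4 and 8798, 9904, 11195 and 13005 CPM in control1 to control4, with overlap. Neutrophils, where these genes make up the largest share of UMIs, were 0.923 to 4.71% of kept cells in iKO and 7.79 to 15.4% in control. CD8 T cells, where the 20 had a median sum of 3382 CPM, were 32.1% and 42.0% of kept cells in iKO1 and iKO2. They were 5.70 to 22.1% in the other matrices. In whole samples fewer cells of a type and less RNA per cell cannot be told apart, and the part of the neutrophil and CD8 T shares was not tested.

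Hspa8, the constitutive HSP70, was the 1 member called in the whole samples, where 2.53% of all genes were. It stood at 2197, 2249.7, 1808 and 1902 CPM in iKO1 to iKO4 and at 1373, 1255, 1325 and 1611 CPM in control1 to control4. Every iKO value was above every control value, as for 7.39% of all genes, with a difference of 0.55 ± 0.11 (log2 fold change iKO minus control ± SE, adjusted p = 0.0398). Leaving out iKO1, iKO2, iKO3, iKO4, control1, control2 or control3 ended the call, with an adjusted p of up to 0.147. Its log2 fold change was 0.42 (adjusted p = 0.227) without iKO1 and iKO2 and 0.68 (adjusted p = 0.0212) without iKO3 and iKO4.

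The log2 fold change of Hspa8 was above 0 in all 9 fits. It was called in monocytes and macrophages (0.49, adjusted p = 0.0439), CD8 T (0.53, adjusted p = 0.0263), CD4 T (0.78, adjusted p = 0.000907) and other T cells (0.51, adjusted p = 0.00192), gates in which 10.5%, 3.34%, 2.43% and 20.8% of all genes were called in either direction. The genotypes did not overlap in these 4 gates (for the iKO-higher direction, 9.73%, 6.21%, 4.21% and 10.8% of all genes), in mature DC (0.43, adjusted p = 0.128, 3.67% of all genes) or in Treg (0.35, adjusted p = 0.154, 5.31%), and they did in neutrophils (0.42, adjusted p = 0.339) and B cells (0.42, adjusted p = 0.0855).

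The 5 melanoma markers, each detected in at least 1 matrix of every set of profiles named here, were also higher in iKO where Hspa8 was called. They summed to 10.3 to 23.3 CPM in iKO and 5.36 to 9.67 CPM in control in the whole samples, and to 5.93 to 13.4 CPM in iKO and 0.757 to 3.42 CPM in control in CD8 T cells. In CD4 T cells they summed to 7.60 to 16.4 CPM in iKO and 2.25 to 3.33 CPM in control, and in other T cells to 5.13 to 14.9 CPM in iKO and 0 to 2.19 CPM in control. The genotypes did not overlap in any of these. Nor did they in B cells, where Hspa8 was not called (15.8 to 34.2 CPM in iKO and 4.33 to 10.1 CPM in control). In neutrophils, mature DC and Treg, where Hspa8 was not called either, the melanoma markers overlapped between the genotypes. The part of melanoma RNA in the Hspa8 result was not tested.

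The CD4 T gate had the largest of these fold changes. Hspa8 stood at 2089, 2071, 2148 and 1616 CPM in iKO1 to iKO4 and at 1097, 1156, 1117 and 1262 CPM in control1 to control4, with iKO4 below the other 3 iKO samples. It passed without any 1 matrix (adjusted p from 0.000304 to 0.007), and its log2 fold change was 0.69 (adjusted p = 0.0178) without iKO1 and iKO2 and 0.87 (adjusted p = 0.000663) without iKO3 and iKO4. In other T cells Hspa8 stood at 1829, 1977, 1549 and 1629 CPM in iKO1 to iKO4 and at 1232, 1149.7, 1254 and 1283 CPM in control1 to control4, and it passed without any 1 matrix (adjusted p from 0.00117 to 0.00975).

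In CD8 T cells Hspa8 stood at 1974, 2027, 1654 and 1605 CPM in iKO1 to iKO4 and at 1384, 1109, 1188 and 1353 CPM in control1 to control4. Hspa8 did not pass without iKO1, iKO2, control2 or control3 (adjusted p up to 0.0977). iKO1 and iKO2 were the highest, and these also had the deepest CD8 T cells: with each cell thinned to 2000 UMIs the difference was 0.49 (adjusted p = 0.0572). At full depth it was 0.37 (adjusted p = 0.0796) without iKO1 and iKO2 and 0.68 (adjusted p = 0.00231) without iKO3 and iKO4.

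Monocytes and macrophages had a like split. Hspa8 stood at 2530.4, 2760.5, 1829 and 1878 CPM in iKO1 to iKO4 and at 1619, 1538, 1618 and 1618 CPM in control1 to control4. The 4 controls lay within 1538 to 1619 CPM, while iKO1 and iKO2 lay well above iKO3 and iKO4. The call was lost without iKO1, iKO2, control1, control2, control3 or control4, with an adjusted p of up to 0.114. Its log2 fold change was 0.21 (adjusted p = 0.164) without iKO1 and iKO2 and 0.73 (adjusted p = 0.000754) without iKO3 and iKO4, and 0.47 (adjusted p = 0.0569) with the replicate number as a block.

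**Figure D3:**
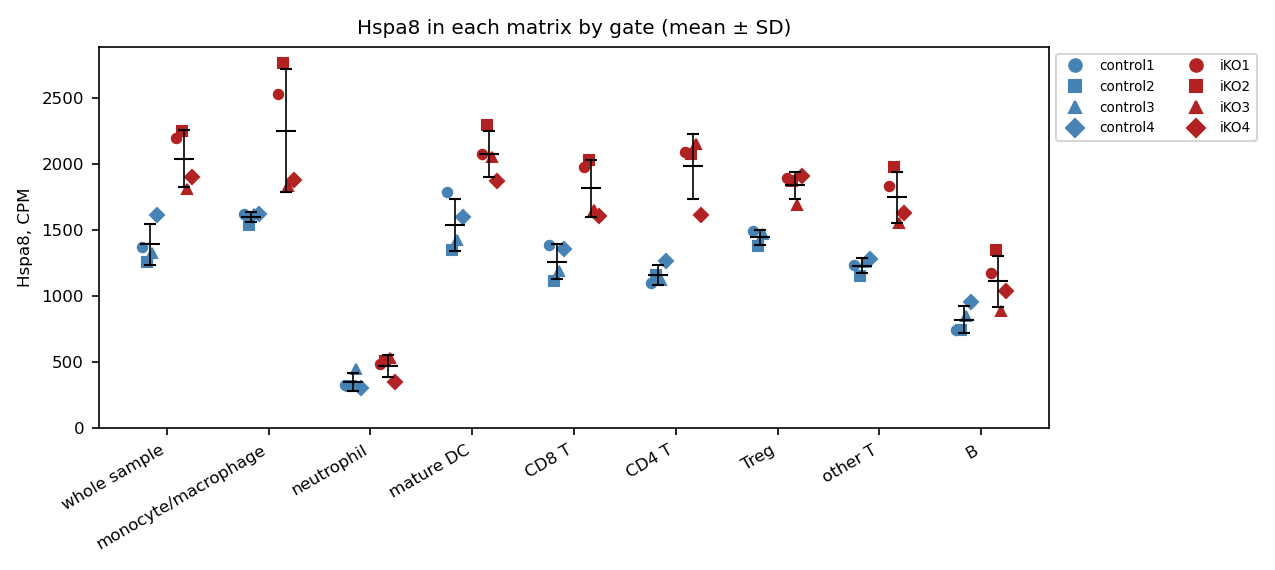
Hspa8 level in CPM (y axis, from 0) for each matrix in the whole samples and 8 gates (x axis), blue for control and red for iKO, with mean and SD in black. The red points sit above the blue ones in 7 of the 9 columns, and neutrophils have the lowest level.

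In iKO monocytes and macrophages, 3 heat-shock genes fell, while Hspa8 rose. Of the 14 heat-shock genes tested there, 1 was called higher and 3 lower, where 10.5% of all genes were called (5.54% higher, 4.92% lower). The median of the 14 was -0.26, beside 0.00 for all genes. The 3 lower genes were Hspa1b, Dnajb4 and Hspb1, in each of which the genotypes did not overlap, as for 9.15% of all genes.

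Hspa1b stood at 192, 121, 71.8 and 81.3 CPM in iKO1 to iKO4 and at 299, 391, 218 and 369.8 CPM in control1 to control4. All 4 iKO samples were below all 4 controls, and the difference was -1.45 ± 0.31 (log2 fold change iKO minus control ± SE, adjusted p = 0.0221). Leaving out iKO2, control2 or control4 ended the call, with an adjusted p of up to 0.0677. Its log2 fold change was -2.06 (adjusted p = 0.0147) without iKO1 and iKO2 and -1.03 (adjusted p = 0.0259) without iKO3 and iKO4.

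Hspa1a, the twin gene, had 254, 162, 76.9 and 107 CPM in iKO1 to iKO4 and 275, 376, 253 and 385 CPM in control1 to control4. iKO1 reached control3, and the difference of -1.10 ± 0.33 (log2 fold change iKO minus control ± SE, adjusted p = 0.062) missed the threshold, though it passed with the replicate number as a block (-1.23, adjusted p = 0.0317).

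Dnajb4, a J-protein partner of HSP70, stood at 5.87, 9.22, 8.21 and 6.70 CPM in iKO1 to iKO4 and at 12.5, 18.1, 12.8 and 14.6 CPM in control1 to control4. The difference was -0.95 ± 0.17 (log2 fold change iKO minus control ± SE, adjusted p = 0.0145). It passed without any 1 matrix (adjusted p from 0.0154 to 0.0446), and its log2 fold change was -0.97 (adjusted p = 0.0428) without iKO1 and iKO2 and -0.93 (adjusted p = 0.0182) without iKO3 and iKO4. Levels were low, between 97 and 301 UMIs per matrix.

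Hspb1, a small heat-shock protein, stood at 7.31, 2.80, 4.57 and 4.80 CPM in iKO1 to iKO4 and at 17.7, 63.7, 14.1 and 19.8 CPM in control1 to control4. The control mean leaned on control2, which was far above the other 3, and the difference was -2.53 ± 0.50 (log2 fold change iKO minus control ± SE, adjusted p = 0.018). Without control2 it was -1.82 (adjusted p = 0.0271) and without iKO2 -2.32 (adjusted p = 0.0551). Its log2 fold change was -2.57 (adjusted p = 0.0879) without iKO1 and iKO2 and -2.47 (adjusted p = 0.0341) without iKO3 and iKO4.

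The inducible HSP70 RNA sat in few cells. With each monocyte or macrophage thinned to 2000 UMIs, the 10% of cells with the most Hspa1a held 83.0% to 100% of its UMIs in a matrix, against 27.2% to 32.9% for Fos. Where fewer than 10% of cells hold a UMI, this share is 100% by construction. Fos is also far more abundant, so the contrast is not one of spread alone. Cells with at least 5 Hspa1a UMIs of 2000 were 4.74, 2.74, 1.61 and 1.51% in iKO1 to iKO4 and 5.27, 8.80, 3.95 and 7.08% in control1 to control4. For Hspa1b they were 3.77, 2.29, 1.61 and 1.19% and 4.76, 7.58, 3.29 and 7.31%. The genotypes overlapped through iKO1 for both genes, and no test was made on cells. A Hspa1a UMI was found in 8.74% of iKO and 15.8% of control cells (means of 4 matrices), and in 27.0% and 33.2% before thinning. In B cells the thinned shares were 5.06% and 7.73%, and in neutrophils 2.50% and 6.10%.

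Cell by cell, the sums of the 2 groups were close to unrelated. Across thinned cells, Spearman's rho between the immediate-early and the heat-shock sums ran from -0.118 to 0.0839 over the 8 monocyte and macrophage matrices (409 to 2006 cells each). In CD8 T cells it ran from -0.132 to 0.182. Both sums come from the same thinned total of a cell, so these values are a description, and sparse counts pull them towards 0.

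Immediate-early genes were mixed in monocytes and macrophages: 1 of 20 was called higher and 2 lower, beside 5.54% and 4.92% of all genes. Of the 20, 15 were below 0 and the median was -0.18. Fos stood at 1782, 1692, 2047 and 2285 CPM in iKO1 to iKO4 and at 2448, 2337, 2753 and 2903 CPM in control1 to control4. All iKO samples were below all controls, as for 9.15% of all genes, with -0.42 ± 0.11 (log2 fold change iKO minus control ± SE, adjusted p = 0.0423). Fos did not pass without iKO1, iKO2, iKO3, control2, control3 or control4 (adjusted p up to 0.118). Its log2 fold change was -0.27 (adjusted p = 0.23) without iKO1 and iKO2 and -0.59 (adjusted p = 0.00739) without iKO3 and iKO4.

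Zfp36l1, which binds AU-rich mRNAs and speeds their decay, stood at 142, 145, 239 and 244 CPM in iKO1 to iKO4 and at 270.3, 383, 379 and 392 CPM in control1 to control4. Again the genotypes did not overlap, and the difference was -0.89 ± 0.21 (log2 fold change iKO minus control ± SE, adjusted p = 0.0286). The call was lost without iKO1, iKO2, control2, control3 or control4, with an adjusted p of up to 0.0815. Its log2 fold change was -0.56 (adjusted p = 0.106) without iKO1 and iKO2 and -1.31 (adjusted p = 0.00124) without iKO3 and iKO4.

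Dusp2 ran the other way and stood at 151, 145, 118 and 120.3 CPM in iKO1 to iKO4 and at 85.1, 68.1, 118 and 76.6 CPM in control1 to control4. The genotypes did not overlap, as for 9.73% of all genes, though iKO3 and control3 nearly met, and the difference was 0.62 ± 0.17 (log2 fold change iKO minus control ± SE, adjusted p = 0.045). Leaving out iKO1, iKO2, iKO4, control1, control2 or control4 ended the call, with an adjusted p of up to 0.119. With the replicate block it was 0.64 (adjusted p = 0.0562), and its log2 fold change was 0.46 (adjusted p = 0.259) without iKO1 and iKO2 and 0.77 (adjusted p = 0.0222) without iKO3 and iKO4.

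Near the threshold were Jun, at 625, 611, 375 and 443 CPM in iKO and 647, 889, 731 and 747 CPM in control without overlap (-0.55, adjusted p = 0.0667), and Ier3 (-0.61, adjusted p = 0.06), Junb (-0.28, adjusted p = 0.0785) and Atf3 (-0.50, adjusted p = 0.105). Jun was lowest in iKO3 and iKO4, while Ier3 was lowest in iKO1 and iKO2 (829.7 and 741 CPM against 1141 and 1239). Neutrophil marker RNA moved with genotype in this gate: the 6 markers summed to 131 to 215 CPM in iKO and 328 to 611 CPM in control. T cell and melanoma markers moved the other way, also without overlap: the 6 T cell markers summed to 49.1 to 58.9 CPM in iKO and 31.5 to 41.8 CPM in control, and the 5 melanoma markers to 14.0 to 33.3 CPM in iKO and 6.34 to 13.8 CPM in control. Their part in the results of this gate was not tested. At the ratio of the neutrophil markers, RNA from neutrophils would supply up to 0.605% of Fos, 1.04% of Ier3 and 0.129% of Hspa1b in a matrix. The gate was drawn against neutrophil markers, so this ratio was lowered by the gating and sets no upper limit.

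The gate was also divided by the macrophage complement genes C1qa, C1qb and C1qc. Zfp36l1 was the 1 member called in C1q-positive cells (-0.91, adjusted p = 0.0436), where 2.23% of genes were called. In C1q-negative cells, where 13.8% were, Atf3 (-0.66, adjusted p = 0.0175), Ier3 (-0.79, adjusted p = 0.046), Jun (-0.57, adjusted p = 0.0275), Dusp1 (-0.35, adjusted p = 0.0339) and Hspa1b (-1.51, adjusted p = 0.0181) were called lower and Hspa8 (0.44, adjusted p = 0.0304) higher. These 2 fits are not among the 9 counted above. Whether the genotype effects of the 2 kinds of cell differ was not tested.

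**Figure D4:**
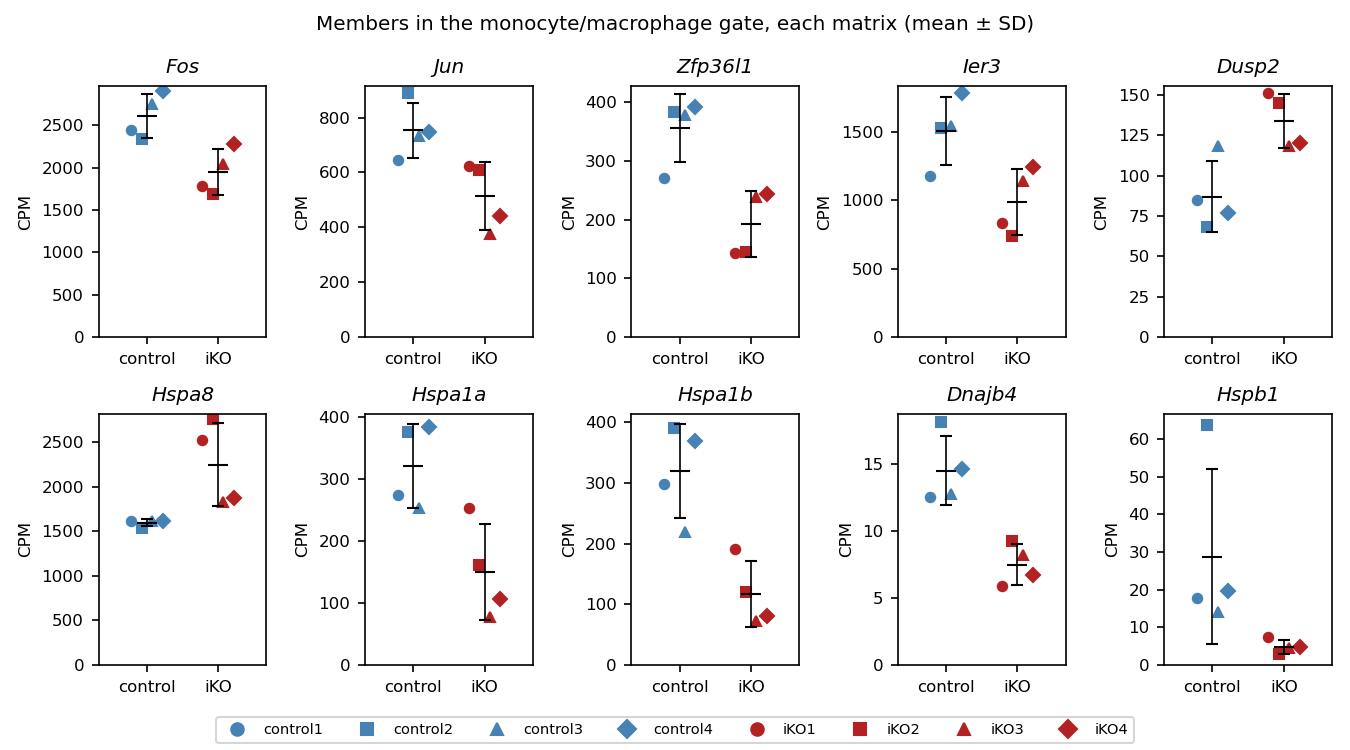
CPM of 10 members in monocytes and macrophages (y axes, from 0), each point 1 matrix, blue for control and red for iKO, with mean and SD in black. Hspa8 and Dusp2 are higher in iKO and the other 8 lower; Hspa1a and Ier3 overlap between genotypes, and 1 control sample (63.7 CPM) carries the Hspb1 spread.

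In neutrophils 16 of 20 immediate-early genes were below 0 (median -0.22), beside 49.4% of all genes, and none was called by edgeR. This leaned on control3, where the 20 summed to 36714 CPM against 20024 to 28240 CPM in the other controls. Without control3 it was 11 of 20 (median -0.05), beside 48.2% of all genes. With any other matrix left out it was 12 to 19 of 20. An unadjusted p under 0.05 was found for 4 of 20, beside 15.3% of all genes, and DESeq2 called 0. Hspa1a alone passed among the 10 heat-shock genes tested, beside 2.9% of all genes. It stood at 15.3, 19.1, 9.60 and 17.8 CPM in iKO1 to iKO4 and at 25.3, 86.6, 64.8 and 47.4 CPM in control1 to control4. The iKO samples were all below the controls, as for 3.42% of all genes, with -1.78 ± 0.40 (log2 fold change iKO minus control ± SE, adjusted p = 0.0321), from 3 to 81 UMIs per matrix. Hspa1a did not pass without iKO1, iKO3, iKO4, control2, control3 or control4 (adjusted p up to 0.0932), and its log2 fold change was -1.92 (adjusted p = 0.0793) without iKO1 and iKO2 and -1.61 (adjusted p = 0.268) without iKO3 and iKO4. The 12 monocyte and macrophage markers, whose gate has more Hspa1a, summed to 239 to 372 CPM in iKO and 392 to 512 CPM in control in these neutrophils, without overlap, and their part was not tested.

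Mature DC showed the heat-shock genes above 0 almost throughout: 10 of 11 were, with a median of 0.35 beside -0.01 for all genes. Hsp90aa1, the inducible cytosolic HSP90, was the 1 call, where 0.531% of genes were called. It stood at 343, 427, 351 and 332 CPM in iKO1 to iKO4 and at 262, 184, 225 and 222 CPM in control1 to control4, without overlap and with 0.71 ± 0.13 (log2 fold change iKO minus control ± SE, adjusted p = 0.0316). The call was lost without iKO1, iKO2, control2, control3 or control4, with an adjusted p of up to 0.134, and its log2 fold change was 0.63 (adjusted p = 0.129) without iKO1 and iKO2 and 0.78 (adjusted p = 0.00697) without iKO3 and iKO4. Neutrophil markers summed to 76.0 to 91.0 CPM in iKO and 229 to 337 CPM in control in this gate, and their part was not tested.

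The other T gate had the most member calls, 8, but 20.8% of its genes were called and it is a mixture of T cells whose makeup was not compared between samples. Hspa5 (0.55, adjusted p = 0.00802), Hsph1 (0.81, adjusted p = 0.0282), which exchanges nucleotide on HSP70, Hsp90aa1 (0.44, adjusted p = 0.0213) and Jund (0.48, adjusted p = 0.0111) were higher there. Jund stood at 1109, 1138, 1231 and 1141 CPM in iKO1 to iKO4 and at 816, 722, 1054 and 718 CPM in control1 to control4, without overlap. It passed without any 1 matrix (adjusted p from 0.0016 to 0.0419), and its log2 fold change was 0.52 (adjusted p = 0.0508) without iKO1 and iKO2 and 0.46 (adjusted p = 0.0258) without iKO3 and iKO4. Fosl2 was lower (-0.68, adjusted p = 0.0161), with the genotypes overlapping. The Hsp90aa1 call was lost without iKO1, iKO2, control2 or control3, with an adjusted p of up to 0.075. The Hsph1 call was lost without iKO1, iKO2, iKO3, control2, control3 or control4, with an adjusted p of up to 0.0892.

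Without iKO1 and iKO2, the gate had 1 member call in place of 8, and 6.17% of all genes were called. The Fosl2 call was lost without iKO1 or control3, with an adjusted p of up to 0.0573. Hspa5 passed without any 1 matrix (adjusted p from 0.00139 to 0.0327).

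In CD4 T cells Jun stood at 96.3, 63.2, 67.9 and 85.1 CPM in iKO1 to iKO4 and at 159.7, 116, 129.7 and 157 CPM in control1 to control4. The genotypes did not overlap, as for 4.46% of all genes, the difference was -0.83 ± 0.18 (log2 fold change iKO minus control ± SE, adjusted p = 0.0232), and 2.43% of all genes were called in this gate. Leaving out iKO2, iKO3, control1 or control4 ended the call, with an adjusted p of up to 0.0954, and its log2 fold change was -0.84 (adjusted p = 0.189) without iKO1 and iKO2 and -0.81 (adjusted p = 0.118) without iKO3 and iKO4. Neutrophil markers summed to 112 to 220.2 CPM in iKO and 428 to 493 CPM in control in this gate. Monocyte and macrophage markers stood at 4.33% to 7.24% of their level in their own gate. They summed to 281 to 399 CPM in iKO and 390 to 491 CPM in control, with overlap. Jun was also lower in iKO monocytes and macrophages, though not called there. The part of RNA from either kind of myeloid cell in the Jun result was not tested. No member was called in Treg, of 29 tested in 7 matrices (control4, with 18 Treg cells, was not used), where edgeR called 0.936% of all genes. An unadjusted p under 0.05 was found for 7 of the 29 and for 12.4% of all genes, and DESeq2 called 1 member and 1.43% of all genes.

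Atf3 and Ier3 are abundant in myeloid cells, and myeloid RNA was also counted in the lymphoid gates. The 12 monocyte and macrophage markers were present in CD8 T cells at 2.18% to 3.46% of their level in their own gate, and the 6 neutrophil markers at 0.0442% to 0.501%. The neutrophil share differed by genotype: 0.0442 to 0.0598% in iKO and 0.144 to 0.501% in control. Multiplying each member's myeloid levels by these ratios, matrix by matrix, gives the level that myeloid RNA alone would leave. The gates were drawn against myeloid markers, so the ratios were lowered by the gating.

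Atf3, a stress-induced bZIP factor, was called lower in CD8 T (-0.94, adjusted p = 0.0386) and other T cells (-0.76, adjusted p = 0.038), and Ier3 in CD4 T (-1.06, adjusted p = 0.0499), other T (-0.92, adjusted p = 0.0129) and B cells (-1.25, adjusted p = 0.021), where 2.82% of all genes were called. In CD8 T cells Atf3 stood at 8.66, 9.65, 12.1 and 12.5 CPM in iKO1 to iKO4 and at 13.8, 22.0, 24.2 and 19.8 CPM in control1 to control4. On average this was 15.3 CPM measured against 17.4 at the ratio, and it was at or below the ratio in 6 of 8 matrices. In other T cells Atf3 was at or below it in 7 of 8.

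Ier3 in CD4 T cells stood at 32.1, 58.5, 24.0 and 31.6 CPM in iKO1 to iKO4 and at 94.1, 65.4, 65.4 and 104 CPM in control1 to control4. On average it was 56.0 CPM measured against 80.1 at the ratio, and at or below the ratio in 6 of 8 matrices. The same held in 7 of 8 matrices of other T cells and 5 of 8 of B cells. That level itself gave a log2 ratio of iKO to control of -0.91 for Ier3 in CD4 T and -1.17 in B cells. The part of myeloid RNA in these 5 calls was not tested, and no difference in lymphocyte expression is read from them. Leaving out 1 matrix ended Atf3 in CD8 T cells without iKO1, iKO2, control2, control3 or control4 (adjusted p up to 0.141), and Ier3 in CD4 T cells with any matrix but iKO2 left out (up to 0.143).

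For Atf3 in other T cells the call was lost without iKO1, iKO2, control1, control2 or control3, with an adjusted p of up to 0.126. For Ier3 in other T cells it was lost without control3, with an adjusted p of up to 0.0534. For Ier3 in B cells it was lost without iKO2, iKO3, control2 or control3, with an adjusted p of up to 0.201. With the replicate block, 3 of the 5 did not pass: Ier3 in CD4 T (adjusted p = 0.0762) and B cells (0.119) and Atf3 in other T cells (0.0702).

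The other lymphocyte calls were set against the same level. Jun in CD4 T cells was 1.57 to 3.69 times it, Fosl2 in other T cells 10.6 to 20.3 times, and Hspa8 23.4 to 39.2 times in CD8 T and 8.71 to 24.0 times in CD4 T cells. In other T cells Hspa8 was 13.2 to 21.4 times it, Jund 23.3 to 53.5, Hspa5 5.74 to 11.3, Hsph1 15.6 to 95.8 and Hsp90aa1 13.9 to 29.7 times. Fos in CD8 T cells, with 93.4 CPM measured against 72.2 at the ratio, was 0.863 to 1.74 times. A Fos UMI was found in 12.6% of iKO and 21.1% of control CD8 T cells after thinning to 2000 UMIs and in 48.5% and 59.9% before thinning. In monocytes and macrophages the thinned shares were 81.6% and 82.9%. The CD8 T level of Fos in CPM lies near what myeloid RNA alone would leave. No such level was computed for the share of cells, and no difference is read from that share.

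**Figure D5:**
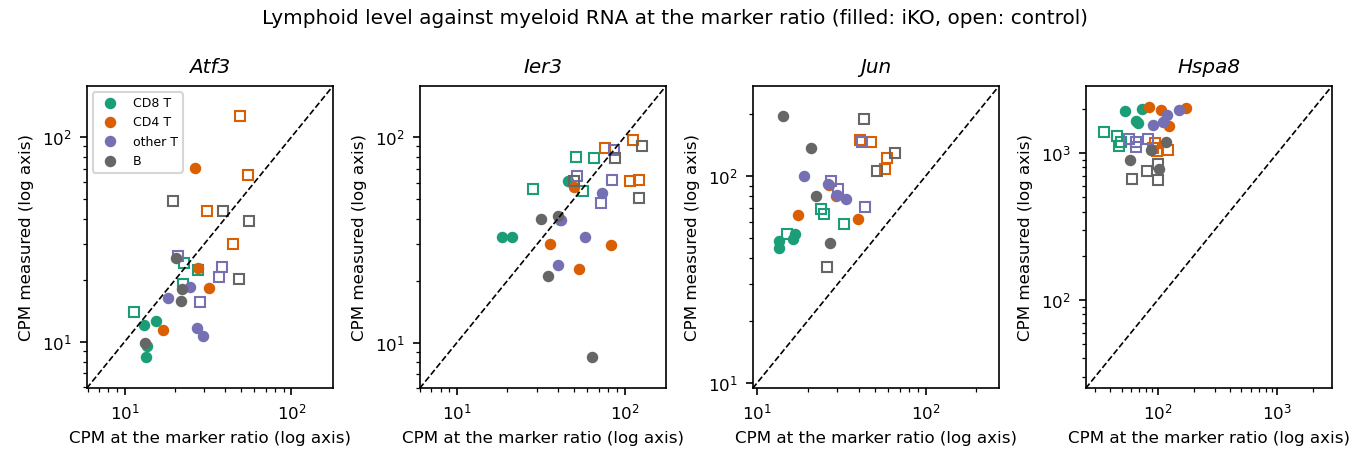
Measured CPM (y, log axis) of Atf3, Ier3, Jun and Hspa8 in 4 lymphoid gates against the CPM that myeloid RNA would leave at the marker ratio (x, log axis), 1 point per gate and matrix, filled for iKO and open for control. Points on the dashed line are at that level: most Atf3 and Ier3 points lie near or under it, and all Hspa8 points lie far above.

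The genotype effects were then compared between gates, since a call in 1 gate and not in another is no difference by itself. Between monocytes and macrophages and CD8 T cells, none of the 34 interactions passed (0.195% of all genes did), and 5 immediate-early and 6 heat-shock genes had an unadjusted p under 0.05, beside 1666 of all 12336 genes. For Hspa1a the difference of effects was -1.79 ± 0.48 (adjusted p = 0.172), for Hspa1b -1.73 ± 0.54 (adjusted p = 0.222) and for Dnajb1 -0.67 ± 0.15 (adjusted p = 0.114), negative where the iKO effect was lower in monocytes and macrophages. Between neutrophils and monocytes and macrophages none passed either (0.219% of all genes did), with 4 and 1 at an unadjusted p under 0.05, beside 880 of all 10489 genes. DESeq2 was not run for these interactions.

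The inducible HSP70 genes of CD8 T cells spread widely within each genotype. Hspa1a stood at 171, 130.4, 12.7 and 44.3 CPM in iKO1 to iKO4 and at 53.2, 26.1, 28.3 and 96.8 CPM in control1 to control4. iKO1, iKO2 and control4 were high and iKO3 the lowest, and the difference was 0.94 ± 0.63 (log2 fold change iKO minus control ± SE, adjusted p = 0.471). Hspa1b stood at 165, 136, 15.0 and 38.0 CPM in iKO1 to iKO4 and at 59.7, 30.2, 38.6 and 149 CPM in control1 to control4. Hsp90ab1, the most abundant uncalled chaperone in this gate, was 2547, 2315, 1868 and 1771 CPM in iKO and 2339.7, 2071, 2171 and 2214 CPM in control (-0.05, adjusted p = 0.878).

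Over both lists, 13 of 20 immediate-early genes of CD8 T cells were below 0 (median -0.15) and 5 of 13 heat-shock genes (median 0.31), beside 3.34% of all genes called and a median of -0.01. The heat-shock sum was 7446, 6980.5, 5350.2 and 5271 CPM in iKO1 to iKO4 and 6106, 5051, 5383 and 5696 CPM in control1 to control4, with iKO1 and iKO2 above every other matrix. Without iKO3 and iKO4 there were 15 member calls in place of 2, while the share of all genes called went from 3.34% to 19.6%. Without iKO1 and iKO2 there were 0, with 3.21% of all genes. With the replicate number as a block there were 7 member calls in CD8 T cells (8.58% of all genes). The block gave 6 in place of 1 in whole samples, 4 in place of 1 in mature DC (2.62% of all genes), 2 in place of 1 in neutrophils (5.64%), 1 in place of 0 in Treg (1.54%) and 0 in place of 1 in B cells (2.38%).

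Of the members never called, the 4 most abundant immediate-early genes in the whole samples were Junb, Btg2, an antiproliferative gene, Dusp1 and Zfp36. Junb stood at 1171, 1092, 1638 and 1744 CPM in iKO1 to iKO4 and at 1514, 1459, 1899 and 2287 CPM in control1 to control4, and the genotypes overlapped (-0.34, adjusted p = 0.343). The other 3 ranged over 536 to 1065 CPM for Btg2 (-0.29, adjusted p = 0.428), 454 to 1021 CPM for Dusp1 (-0.38, adjusted p = 0.323) and 434 to 959 CPM for Zfp36 (-0.26, adjusted p = 0.502). A p that misses the threshold does not show that the genotypes are alike, and the standard errors of these 4 were 0.199 to 0.216 on the log2 scale.

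Among the heat-shock genes never called, Hsp90ab1 was the most abundant. It stood at 1883, 1899, 1482 and 1416 CPM in iKO1 to iKO4 and at 1661, 1493, 1336 and 1755 CPM in control1 to control4, with overlap (0.10, adjusted p = 0.698). Hspe1 ranged over 283 to 399 CPM (-0.08, adjusted p = 0.734), Dnaja1 over 256 to 382 CPM (0.18, adjusted p = 0.42) and Hspd1 over 130.3 to 216 CPM (0.14, adjusted p = 0.656).

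The genes around these 2 programmes came from 3 further lists. Of 37 further immediate-early genes, 35 were tested in monocytes and macrophages and 3 were lower, none higher, beside 4.92% of all genes lower: the phosphatase gene Dusp4 (-1.10 ± 0.21, adjusted p = 0.0168), the AP-1 gene Fosl1 (-0.76, adjusted p = 0.0485) and the GTPase gene Rhob (-0.65, adjusted p = 0.0234). Among CD8 T cells, where 3.34% of all genes were called, 1 of 33 was lower, again Dusp4 (-1.11, adjusted p = 0.00458). In other T cells Dusp4 was instead called higher in iKO. The levels of Dusp4 were 1.79 ± 0.23 CPM in iKO and 3.81 ± 0.915 CPM in control monocytes and macrophages.

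From the list of further heat-shock genes, Ahsa1, which stimulates the HSP90 ATPase, was higher in iKO monocytes and macrophages (0.65 ± 0.11, adjusted p = 0.0106), and none of the 36 tested was lower. It stood at 119.7, 121, 91.9 and 95.8 CPM in iKO1 to iKO4 and 72.3, 66.8, 64.8 and 69.9 CPM in control1 to control4. Among CD8 T cells Ubb, a ubiquitin gene, was higher in iKO (0.45, adjusted p = 0.00433), and none of the 35 tested was lower. None of the 17 genes of the endoplasmic reticulum list was called in either gate by edgeR.

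The other T gate gave more calls on all 3 lists, as it did over all genes (10.5% higher and 10.3% lower). Of the 17 endoplasmic reticulum genes 7 were higher and 0 lower, with a median of 0.43 beside -0.02 for all genes. The 7 were Calr, Creld2, Dnajb11, Manf, Pdia3, Pdia6 and Sdf2l1, named after their values were seen, and Calr and Pdia3 are known to fold glycoproteins. Of 34 further heat-shock genes 7 were higher and 2 lower, and of 31 further immediate-early genes 1 was higher, Dusp4, and 4 lower.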

How the data were processed

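The deposited counts are UMI counts per gene and cell, made by the authors with Cell Ranger 7.1.0 on GRCm39, per the submitters' processing notes; 8 matrices were given, 4 per genotype. The members, gene lists and tests were chosen with earlier results of these data known. Cells with at least 300 genes and at most 10% mitochondrial UMIs were kept (1241 removed), and scanpy 1.11.5 (scrublet) scores above 0.25 removed 438 doublets, 1.95% of those scored. Gates needed at least 3 detected markers of a type (4 for monocytes and macrophages and for neutrophils), with thresholds set after seeing the marker distributions.

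UMIs were summed per gate and matrix, from at least 20 cells, and fitted where at least 3 matrices per genotype remained, which left NK, cDC1, cDC2 and pDC untested between genotypes. The test was edgeR 4.0.16's quasi-likelihood test (R 4.3.3) with TMM factors, filterByExpr and Benjamini-Hochberg adjustment over all genes tested, at 0.05. CPM in the level and sum comparisons are relative to the profile's UMI total, and CPM in the genotype tests are TMM-scaled. The range of total counts, 17111065 to 96457227 UMIs per matrix, sets the precision of low genes. Named in full are the called members and the most abundant uncalled ones. Further pathway genes are named where called in monocytes and macrophages or CD8 T cells. A result of the further heat-shock list is not reported here.

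The hashtag numbers are shared between genotypes. Deviations from the group means correlated between same-numbered samples at 0.50, 0.24, 0.14 and 0.53 for numbers 1 to 4, so a fit with the number as a block was run. For numbers 2 and 3, a differently numbered sample correlated more strongly (0.58 and 0.35). The genotype test was checked on simulated data with 200 changed genes. Of 2-fold changes it recovered 54.5% in whole samples, 72.5% in monocytes and macrophages, 69% in CD8 T cells and 36.5% in neutrophils. Of 4-fold changes it recovered 89.5%, 97.5%, 99% and 97%. Between 1.35% and 6.28% of the genes called were false. Many 2-fold differences could thus be missed, most of all in neutrophils. Alternatives were other scaling factors, no low-count filter, DESeq2 1.42.0, the block, other cell filters and gates, thinning, and leaving out matrices. Leaving out iKO1 with iKO2, or iKO3 with iKO4, was added after seeing the data.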

Additional observations from a re-analysis of the deposited data

Results flagged for a closer look

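Of 82 groups of 4 samples examined, 5 held a sample whose gap to its nearest neighbour took up nearly the whole range of the group. Chance flags about 1 group in 20. In monocytes and macrophages these were Hspb1 in control2 (63.7 CPM, above the other controls), Hspa8 in control2 (1538 CPM, below the other controls, all 4 within a narrow range) and Zfp36l1 in control1 (270.3 CPM, below the others). In CD4 T cells Hspa8 in iKO4 (1616 CPM) lay below the other iKO samples. In other T cells the sum of the 20 immediate-early genes was 6940.4 CPM in control3, above the other controls.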

How the results depend on the processing

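No called member changed direction under any setting run. The number of members called did change, and so did the share of all genes called, given as a percentage where shown. The counts are therefore not a result about the members alone. In whole samples 1 was called (2.53% of all genes). It was 0 with no low-count filter (1.26%) and 7 with DESeq2 (10.3%). It was 6 with the replicate block (5.26%) and 4 with cells thinned to 2000 UMIs (6.85%). It was 0 without iKO1 and iKO2 (0.582%), 7 without iKO3 and iKO4 (10.9%), and 0 to 1 with 1 matrix left out. In monocytes and macrophages 7 were called (10.5%). It was 12 with DESeq2 (16.7%), 4 without iKO1 and iKO2 (1.86%) and 12 without iKO3 and iKO4 (23.4%). It was 1 in C1q-positive cells alone (2.23%) and 1 to 7 with 1 matrix left out. In neutrophils 1 was called (2.90%). It was 4 with no filter (2.52%), 2 with the block (5.64%) and 0 without either iKO pair (3.42% and 2.47%). It was 0 after thinning (2.77%), 0 with 1 more marker required (3.27%) and 0 to 3 with 1 matrix left out.

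In mature DC 1 was called (0.531% of all genes). It was 0 with library totals alone (0.382%), 7 with no filter (2.41%) and 4 with the block (2.62%). It was 0 without iKO1 and iKO2, 4 without iKO3 and iKO4, 0 after thinning and 0 to 1 with 1 matrix left out. For CD8 T cells the shares of all genes without either iKO pair and with the block are given above. In CD8 T cells (2) it was 4 with DESeq2, 7 with the block, 0 without iKO1 and iKO2, 15 without iKO3 and iKO4, 0 after thinning, 1 with doublets kept and 0 to 4 with 1 matrix left out. In CD4 T cells (3) it was 5 with no filter, 1 without either iKO pair and 1 to 3 with 1 matrix left out. In Treg (0) it was 3 with no filter, 1 with DESeq2, 1 with the block and 1 with at most 5% mitochondrial UMIs, and 0 with any 1 matrix left out.

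In other T cells (8) it was 1 without iKO1 and iKO2, 3 after thinning and 4 to 9 with 1 matrix left out. In B cells (1) it was 3 with no filter, 0 with DESeq2, 0 with the block, 0 without iKO1 and iKO2, 0 after thinning, 2 with doublets kept and 0 to 2 with 1 matrix left out. The cause was not tested. The replicate block ended the calls of Hspa8 and Dusp2 in monocytes and macrophages, Ier3 in CD4 T and B cells and Atf3 in other T cells, and changed no other call named in full above except to add members.

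For the called members, 105 of the fits with 1 matrix left out kept the call and 87 lost it, and 24 kept and 24 lost it with 2 iKO matrices left out. Under the other settings 186 kept and 25 lost it. Library totals alone moved the median of all genes in neutrophils by -0.215 (log2). The share of cells with a Hspa1a UMI was 27.0% and 33.2% (iKO, control) unthinned in monocytes and macrophages. The Fos share in CD8 T cells was 48.5% and 59.9% unthinned, and 7.84% and 12.5% at 1000 UMIs. The planned NK comparisons were not run, since only 2 matrices had 20 NK cells. Depth limits the low genes most: Hspa1a in neutrophils rested on 3 to 81 UMIs per matrix.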
